A study of Drosophila melanogaster with 4 samples.

Results

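The genes described are the core cell cycle and DNA replication genes of Drosophila melanogaster, measured in the myoblasts attached to the wing disc. These myoblasts are the proliferating precursors that later fuse into the flight muscles of the adult. A list of 40 gene symbols was drawn up, covering cyclins and their kinases, the E2F and Rb factors, replication licensing and DNA synthesis, and mitosis. Of these, 39 were matched by symbol to the table of 17494 genes, and Orc1 was not matched and is not analysed here. All 39 genes passed the filter on low counts, which kept 10360 genes for testing.

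RNA was compared between 2 control and 2 Antp RNAi libraries. All animals carried the muscle lineage driver Mef2-Gal4 and a UAS-GFP reporter and were raised at 29°C to 0 hours after puparium formation (APF). The control expressed a hairpin against y, a pigmentation gene, and the other group a hairpin from a single line against Antp, the Hox gene Antennapedia. GFP-positive myoblasts were sorted from 30 to 35 wing discs, with about 50000 cells for each sample. The labels name the GFP transgene in more than one way and in places call the control WT, so the control genotype is known only that far.

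The cell cycle is driven by cyclin-dependent kinases (Cdks), whose cyclin partners appear and are destroyed in turn. CycD with Cdk4 and CycE with Cdk2 act in G1 and at entry into S phase, where E2F factors switch on the genes of DNA replication unless held by Rb proteins. MCM helicases are loaded on origins in G1 by the origin recognition complex and its partners, and CycA and CycB with Cdk1 then bring the cell into mitosis after the phosphatase String (stg) has removed inhibitory phosphates from Cdk1. The anaphase-promoting complex, activated by fzy and fzr, ends mitosis by having cyclins and securin degraded. Much of this control acts on protein stability and phosphorylation, which counts of RNA do not measure. In bulk RNA, fewer cycling cells and less RNA for each cycling cell cannot be told apart.

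Levels are given as CPM, the count divided by the TMM-corrected library size and brought to a shared total. The libraries held 42110502 to 53957914 counts, and 12537 to 12800 genes had at least 1 count. The 39 genes took a share of 0.762% and 0.776% of each control library and 0.813% and 0.819% of each Antp RNAi library, and the lowest count of any of them in a library was 659. Antp was at 192 and 172 CPM in control replicates 2 and 3 and at 135 and 144 CPM in Antp RNAi replicates 1 and 2, a log2 fold change of -0.38 (SE 0.11, edgeR quasi-likelihood test, adjusted p = 0.145). Thus the targeted RNA was lower in both Antp RNAi libraries, without passing the test. The y RNA had 0 counts in both control libraries and 382 and 365 counts in those of Antp RNAi. Of 10 myoblast genes, twi stood at 2191 to 2762 CPM and Him at 3071 to 4057 CPM in every library. By estimate 5 of the 10 were higher and 5 lower in Antp RNAi. By edgeR ct alone was called at 0.05, lower, with a log2 fold change of -0.86 (adjusted p = 0.00748 by edgeR), where 2.58% of all genes were called. A second tool, DESeq2, also called zfh1, higher (adjusted p = 0.0204 by DESeq2). The edgeR estimates were 0.46 for zfh1, -0.33 for Mef2 and -0.32 for vg. At an unadjusted p below 0.05 by edgeR there were 5 of the 10, against 11.5% of all genes. Of 9 blood cell genes, Hml, eater, PPO1 and He were at or below 0.188 CPM, srp, Sr-CI and lz were at or below 0.789 CPM, and crq was at 39.4 to 44.0 CPM. NimC1 was at 0.828 and 0.826 CPM in the control and 0.0236 and 0.0218 CPM in the Antp RNAi libraries, the latter at 1 count (adjusted p = 0.00799 by edgeR). The summed level of the 9 was 41.8 to 46.5 CPM. The fat body genes Fbp1 and Lsp2 had no counts, and Fbp2 and Lsp1alpha had at most 4 counts in a library. The summed level of the 4 tracheal genes was 22.6 to 24.9 CPM. The disc epithelium genes grh and nub were at 1.35 to 7.18 CPM, and the summed level of the 8 epithelial genes was 1015 and 1120 CPM in the control and 941 and 842 CPM in the Antp RNAi libraries, most of it from shg and ap, which had negative estimates, whereas 5 of the 8 genes had positive ones. The part of these cells in the values below was not tested.

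The cell cycle genes were well expressed in the control myoblasts, and their levels spanned a wide range. To compare genes of different length, CPM was divided by the length of the exons in kilobases. PCNA, the sliding clamp of the DNA polymerases, had the highest level of the 39 genes in each of the 4 libraries, with a control mean of 349.9 CPM per kb. Orc2, a subunit of the origin recognition complex, had the lowest, with a control mean of 11.9 CPM per kb. The highest and lowest control means thus stood 29.4-fold apart. On the same scale 37 of the 39 genes lay above the median of all genes tested. The exceptions were Orc2 and thr, whose product acts with separase, at the 47.0th and 49.5th percentiles. In each library PCNA was 28.2 to 31.9 times as high per kb as Orc2.

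After PCNA came the mitotic kinase polo (161 CPM per kb in the control), tum (149 CPM per kb), a subunit of the centralspindlin complex that builds the cytokinetic furrow, and Cdk1 (147.8 CPM per kb). Orc2, thr and the securin pim (15.3 CPM per kb) were the 3 lowest in all 4 libraries. The products of pim and thr both act with separase at the loss of sister cohesion, and both genes were at the low end. Genes next to each other in the order often could not be separated, since the control libraries overlapped in 22 of the 38 neighbouring pairs. The order was much the same from library to library, with the lowest rank correlation between a pair of libraries at 0.962 over the 39 genes.

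**Figure D1:**
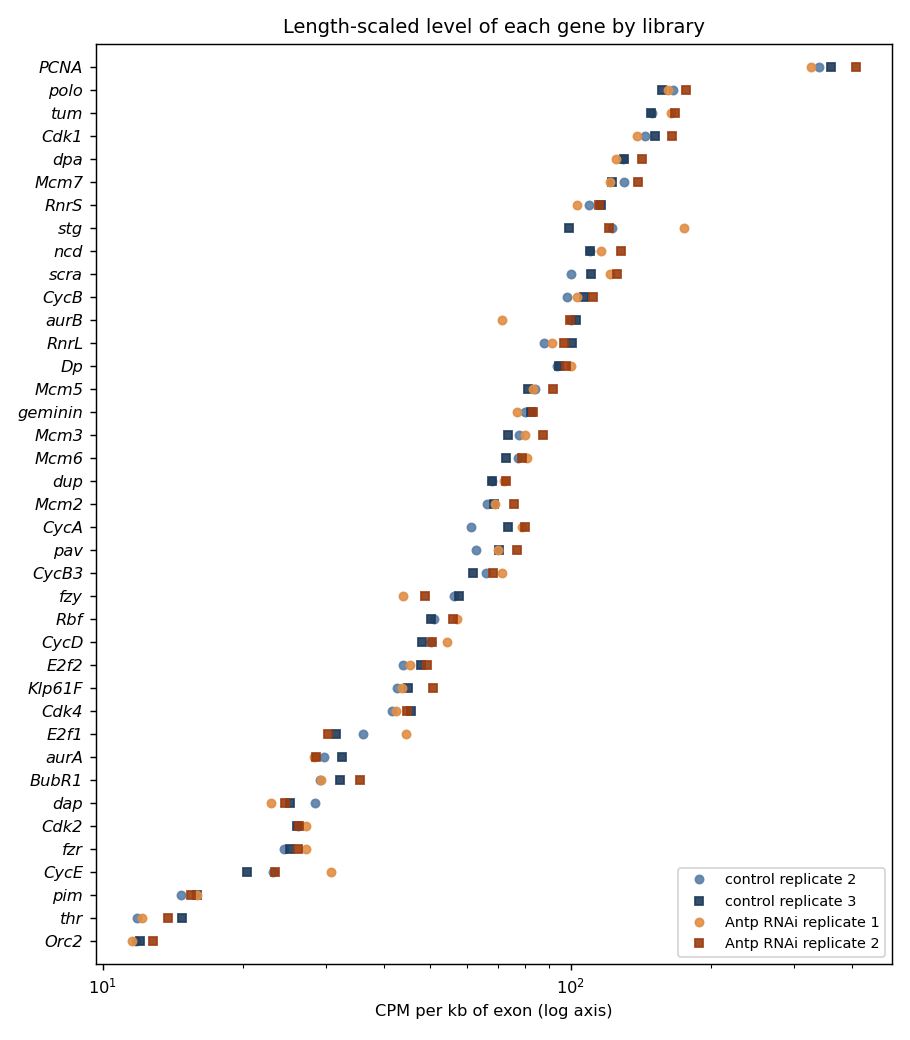
Level of each of the 39 cell cycle and DNA replication genes in the 4 libraries, in CPM per kb of exon on a log axis, ordered by the control mean. PCNA lies highest (349.9 CPM per kb in the control) and Orc2 lowest (11.9), and stg, CycE, E2f1 and aurB show an Antp RNAi replicate 1 value away from the other 3.

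Partners within complexes were not all at the same level. Among the MCM helicase subunits, dpa (the Mcm4 subunit) and Mcm7 were 1.76 to 1.96 times as high per kb as Mcm2 in the 4 libraries. The ratio of RnrS to RnrL, the small and large subunits of the ribonucleotide reductase that makes deoxynucleotides, was 1.13 to 1.24. The licensing factor dup (Cdt1) and its inhibitor geminin were close, at a ratio of 0.826 to 0.941. CycB stood at 1.45 to 1.73 times CycB3, and Dp, the dimer partner of the E2F factors, at 2.25 to 3.22 times E2f1. For dpa over Mcm2 the ratio was 1.95 and 1.89 in the control and 1.81 and 1.87 in the Antp RNAi libraries, and for dup over geminin it was 0.849 and 0.826 against 0.941 and 0.879, so that neither overlapped between the groups. For fzy over fzr, the 2 activators of the anaphase-promoting complex, the ratio was 2.31 and 2.30 in the control and 1.61 and 1.86 in the Antp RNAi libraries, which do not overlap either. The other 7 of the 10 ratios computed overlapped between the groups, and no ratio was tested. Lack of overlap is common with 2 libraries in each group. For levels of single genes, both Antp RNAi libraries were above both controls for 18.6% of all genes tested and below for 22.1%.

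Whether lowering Antp changed expression of the cell cycle machinery was asked next. None of the 39 genes was called at an adjusted p below 0.001, the threshold in the study's methods, or below 0.05 (edgeR quasi-likelihood test, Benjamini-Hochberg adjustment over 10360 genes). Over all genes tested, 48 (0.463%) were called at 0.001 and 267 (2.58%) at 0.05. DESeq2, the tool named in the study's methods, called 236 of 11147 genes at 0.001, and 0 of the 39. DESeq2 and limma-voom likewise called 0 of the 39 genes at 0.05, where they called 4.13% and 2.60% of all genes. At an unadjusted p below 0.05 there were 2 of the 39, stg with the higher level and fzy with the lower level in Antp RNAi, or 5.13% against 11.5% of all genes.

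The estimates were small and bounded on either side. The log2 fold change in Antp RNAi against control ran from -0.30 for fzy to 0.41 for stg, and 38 of the 39 genes lay within 1.25-fold of the control, against 74.9% of all genes tested. The median SE was 0.107 for the 39 genes and 0.149 over all genes tested, and the part of expression level in this was not tested. The 95% interval of every one of the 39 genes lay inside a 2-fold change in either direction, and that of 36 lay inside 1.5-fold. The lowest lower bound was -0.59, for aurB, and the highest upper bound was 0.82, for stg, on the log2 scale. These intervals rest on the spread between libraries, which the labels present as independent replicates while the study's methods speak of technical replicates from 1 biological sample, so spread between crosses may not be covered.

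**Figure D2:**
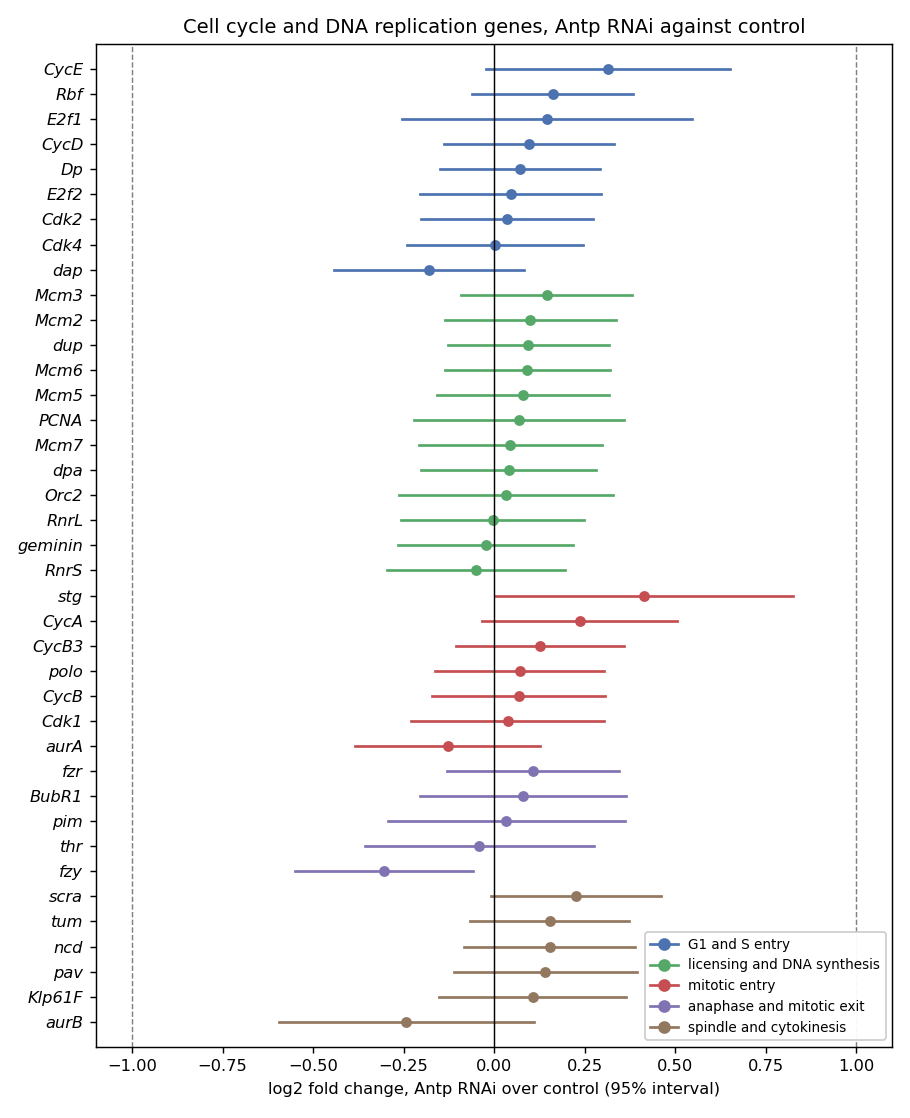
Log2 fold change in Antp RNAi against control for the 39 genes, with 95% intervals from the edgeR fit (n = 2 libraries in each group), coloured by role and sorted within each role. All intervals lie between -1 and 1 (dashed lines, a 2-fold change), and only those of stg and fzy leave out 0.

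Although no gene passed the test, more of the estimates lay above 0 than below. Of the 39 genes, 31 (79.5%) had a positive log2 fold change and 8 a negative one, whereas 47.5% of all genes tested were positive. The median was 0.07, with quartiles of 0.033 and 0.13, against a median of -0.012 over all genes. Both Antp RNAi libraries were above both control libraries for 15 of the 39 genes (38.5%), against 18.6% of all genes, and both were below for 4 (10.3%), against 22.1%. The summed level of the 39 genes was 7610 and 7684 CPM in the control and 8077 and 8341 CPM in the Antp RNAi libraries, 107% of the control. The groups did not overlap, and the exact permutation test gave p = 0.33 (two-sided), the smallest p that 2 libraries against 2 allow. Without Antp RNAi replicate 2 the median was 0.029 and 24 genes were positive, and without control replicate 3 or Antp RNAi replicate 1 it was 0.10 and 0.11, so the size of the shift hung on single libraries.

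Genes of G1 and S phase entry numbered 9, of which 8 had a positive and 1 a negative log2 fold change, with a median of 0.07. CycE, the cyclin that starts S phase with Cdk2, lies at chr2L:15727581-15748150 on the minus strand (dm6). It was at 117 and 103 CPM in control replicates 2 and 3 and at 155 and 118 CPM in Antp RNAi replicates 1 and 2. Antp RNAi replicate 1 stood apart at the top, while replicate 2 was barely above the higher control library. The log2 fold change was 0.31 (SE 0.15, adjusted p = 0.477 by edgeR). Exons of CycE share bases with asRNA:CR44866 and lncRNA:CR44974, on the opposite strand, which had at most 111 counts in a library against at least 5414 for CycE.

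E2f1, the activating E2F factor (chr3R:21620304-21660871, minus strand), was at 233 and 204 CPM in the control and at 288 and 195 CPM in the Antp RNAi libraries. It was the only gene of the 39 with its lowest value in Antp RNAi replicate 2, and the groups overlapped, with a log2 fold change of 0.15 (SE 0.17, adjusted p = 0.860 by edgeR). Without Antp RNAi replicate 1 the estimate for E2f1 was -0.16, and without replicate 2 it was 0.42. dap, the inhibitor of CycE-Cdk2 that marks cells leaving the cycle, was at 72.1 and 63.6 CPM in the control and at 57.9 and 62.0 CPM in the Antp RNAi libraries. Both Antp RNAi values lay below both controls, but control replicate 3 was only a little above the nearest Antp RNAi value, and the log2 fold change of -0.18 did not pass the test (SE 0.11, adjusted p = 0.670 by edgeR). Rbf, the Rb protein that holds back E2F, was at 185 and 182 CPM in the control and at 207 and 203 CPM in the Antp RNAi libraries. Its libraries agreed closely within each group, with a log2 fold change of 0.16 (SE 0.10, adjusted p = 0.644 by edgeR). CycD, Cdk2, Cdk4, E2f2 and Dp had log2 fold changes of 0.0021 to 0.10.

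The 12 genes of origin licensing and DNA synthesis varied least, with log2 fold changes from -0.050 for RnrS to 0.14 for Mcm3 and a median of 0.056, 9 positive and 3 negative. PCNA (chr2R:20261754-20262883, minus strand) was at 363 and 386 CPM in the control and at 349 and 436 CPM in the Antp RNAi libraries. The Antp RNAi pair enclosed the control pair, and the log2 fold change was 0.07 (SE 0.13). Mcm2 was at 192 and 199 CPM in the control and at 199 and 220 CPM in the Antp RNAi libraries. Both Antp RNAi values lay above both controls, but Antp RNAi replicate 1 and control replicate 3 were almost level. RnrL was at 226 and 260 CPM in the control and at 235 and 249 CPM in the Antp RNAi libraries, both of the latter between the controls. geminin, which keeps origins from being licensed again after S phase, was at 84.8 and 87.4 CPM in the control and at 81.4 and 88.0 CPM in the Antp RNAi libraries.

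All 6 MCM subunits had positive estimates, from 0.040 for dpa to 0.14 for Mcm3, with SEs of 0.099 to 0.11, and none passed the test. Both Antp RNAi libraries were above both controls for 4 of the 12 genes (33.3%), against 18.6% of all genes. They were below both for 0, against 22.1% of all genes. The summed level of the 12 genes was 2627 and 2658 CPM in the control and 2607 and 2891 CPM in the Antp RNAi libraries. Antp RNAi replicate 1 was the lowest and replicate 2 the highest of the 4, and the groups overlapped (exact permutation test, two-sided, p = 1). No difference between groups in the RNA of these 12 genes was detected. The permutation test could not have shown one, since at 2 libraries against 2 it cannot go below p = 0.33.

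Among the 7 genes of mitotic entry, 6 had a positive and 1 a negative log2 fold change, with a median of 0.07. stg, the Cdc25 phosphatase that activates Cdk1 (chr3R:29251826-29255800, minus strand), had the highest estimate of the 39 genes. It was at 376 and 304 CPM in the control and at 535 and 371 CPM in the Antp RNAi libraries. Only Antp RNAi replicate 1 stood above the controls, and replicate 2 lay between them, with a log2 fold change of 0.41 (SE 0.18, unadjusted p = 0.0484 and adjusted p = 0.427 by edgeR). Without Antp RNAi replicate 1 the estimate was 0.13. Without replicate 2 it was 0.67 with an adjusted p of 9.41e-04 by edgeR, past the threshold, and over all alternatives its adjusted p ran up to 0.9999.

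CycA, a cyclin of S phase and mitotic entry, was at 179 and 215 CPM in the control and at 230 and 234 CPM in the Antp RNAi libraries. The Antp RNAi libraries were nearly equal and both above the controls, but the control libraries differed from each other by more than the higher of them differed from either. The log2 fold change was 0.24 (SE 0.12, adjusted p = 0.528 by edgeR). CycB was at 300 and 325 CPM in the control and at 315 and 341 CPM in the Antp RNAi libraries. Cdk1 was at 156 and 164 CPM in the control and at 150 and 178 CPM in the Antp RNAi libraries, and polo at 492 and 468 against 482 and 526 CPM. The groups overlapped for all 3 of these genes. aurA, the centrosomal Aurora kinase, was the member of this set with a negative estimate (-0.13, SE 0.11), and CycB3 had 0.13 (SE 0.10). The summed level of the 7 genes was 1740 and 1705 CPM in the control and 1962 and 1891 CPM in the Antp RNAi libraries, 112% of the control, with no overlap (exact permutation test, two-sided, p = 0.33). Of that difference in summed level, 55.4% was in stg.

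The 5 genes of anaphase and mitotic exit had a median log2 fold change of 0.034, with 3 positive and 2 negative. fzy, the Cdc20 activator of the anaphase-promoting complex (chr2L:16310956-16313097, plus strand), had the lowest estimate of the 39 genes. It was at 112 and 116 CPM in the control and at 87.4 and 97.3 CPM in the Antp RNAi libraries. The pairs were well apart, with a log2 fold change of -0.30 (SE 0.11, unadjusted p = 0.0214 and adjusted p = 0.279 by edgeR), and leaving out any library gave -0.37 to -0.22. Its exons overlap those of cact, the IκB of the Toll pathway, on the other strand. The cact counts had a log2 fold change of -0.052 (SE 0.098), and how reads over the shared bases were assigned is not given in the sources used here.

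fzr, the Cdh1 activator that keeps the complex active in G1, was at 68.0 and 70.3 CPM in the control and at 76.0 and 73.0 CPM in the Antp RNAi libraries. Both Antp RNAi values were above the controls by a few CPM, with a log2 fold change of 0.11 (SE 0.10, adjusted p = 0.813 by edgeR). The securin pim was at 14.4 and 15.5 CPM in the control and at 15.5 and 15.1 CPM in the Antp RNAi libraries, with overlapping groups. The spindle checkpoint kinase BubR1 and thr had estimates of 0.079 (SE 0.12) and -0.041 (SE 0.14), each with overlapping groups.

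The 6 genes of the spindle and cytokinesis had the highest median of the roles, 0.15, with 5 positive and 1 negative. scra, the anillin that organises the contractile ring, was at 445 and 492 CPM in the control and at 539 and 558 CPM in the Antp RNAi libraries. All Antp RNAi values were above all controls, and the log2 fold change was 0.23 (SE 0.10, adjusted p = 0.459 by edgeR). The centralspindlin kinesin pav and its partner tum, the minus-end kinesin ncd and the bipolar spindle kinesin Klp61F had log2 fold changes of 0.11 to 0.15. For tum and ncd the groups did not overlap, and for pav and Klp61F they did.

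aurB, the kinase of the chromosomal passenger complex (chr2L:10856797-10858094, minus strand), went the other way. It was at 118 and 121 CPM in the control and at 84.6 and 118 CPM in the Antp RNAi libraries. Antp RNAi replicate 2 was close to control replicate 2, so that the estimate of -0.24 (SE 0.15, adjusted p = 0.668 by edgeR) came from replicate 1. It was -0.018 without that library and -0.48 without replicate 2. The summed level of the 6 genes was 1580 and 1662 CPM in the control and 1718 and 1862 CPM in the Antp RNAi libraries, 110.4% of the control (exact permutation test, two-sided, p = 0.33).

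**Figure D3:**
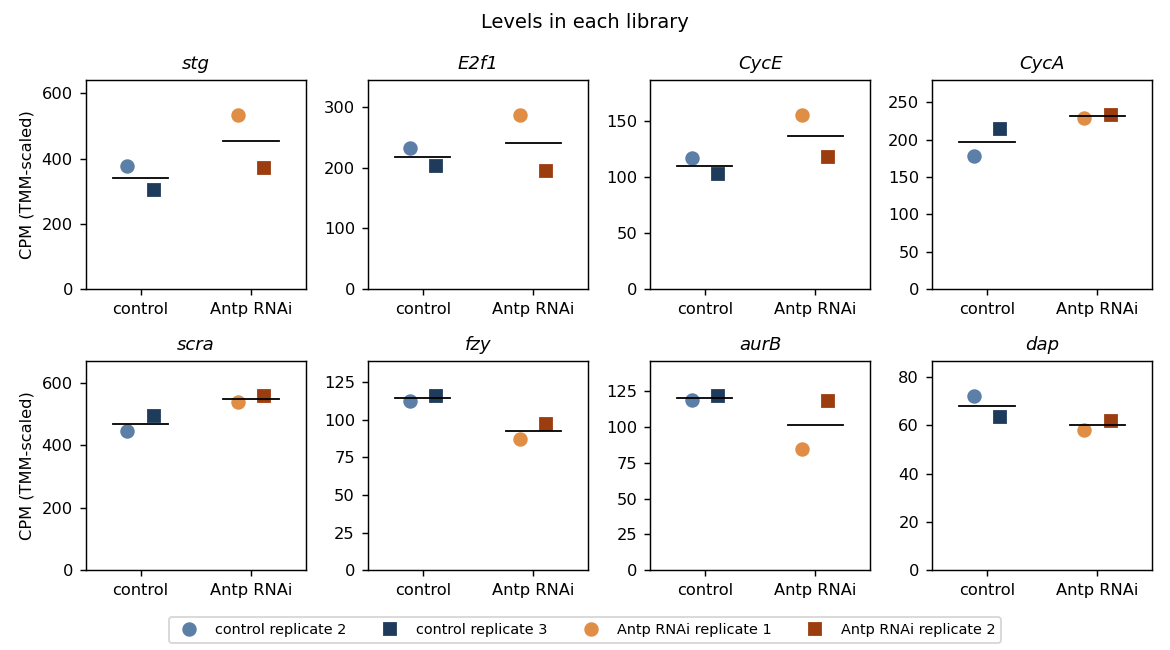
CPM in each library of the 8 genes with the largest estimates or the largest differences between libraries of a group, with points for libraries and lines for group means. Antp RNAi replicate 1 stands highest for stg, E2f1 and CycE and lowest for aurB, while for CycA, scra, fzy and dap both Antp RNAi libraries lie on 1 side of the controls.

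How far the libraries of a group differed was examined gene by gene. The median absolute log2 difference was 0.085 in the control pair and 0.12 in the Antp RNAi pair for the 39 genes, against 0.12 and 0.23 over all genes tested. The cell cycle genes thus differed less between libraries than the median gene in both groups. They were also more highly expressed, 37 of the 39 being above the median level per kb, and the part of expression level in this was not tested. In the Antp RNAi pair 28 of the 39 genes (71.8%) were higher in replicate 2, against 50.6% of all genes.

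Counts by role are given as a description. Replicate 2 was the higher for 11 of the 12 licensing and DNA synthesis genes and for 6 of the 6 spindle and cytokinesis genes, for 5 of the 7 genes of mitotic entry, for 3 of the 5 of anaphase and mitotic exit, and for 3 of the 9 genes of G1 and S phase entry. No difference between roles was tested. The largest differences, replicate 2 over replicate 1, were -0.56 for E2f1, -0.53 for stg, 0.48 for aurB, -0.40 for CycE and 0.32 for PCNA on the log2 scale. stg, E2f1 and CycE also had the most negative differences in the control pair, at -0.31, -0.19 and -0.19 for replicate 3 over replicate 2. Hence these 3 genes shared an order in which replicate 1 of Antp RNAi was highest and control replicate 2 was above control replicate 3. Over 4 libraries no correlation between genes was computed.

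**Figure D4:**
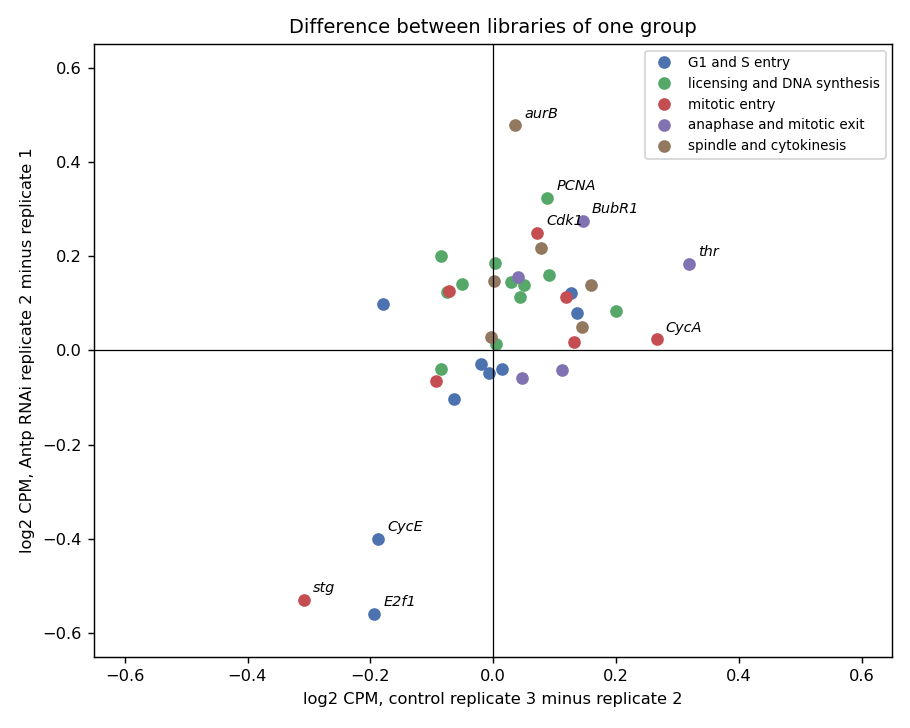
Log2 difference in CPM between the Antp RNAi libraries (vertical axis) against that between the control libraries (horizontal axis) for each of the 39 genes, coloured by role. stg, E2f1 and CycE lie apart at the lower left, aurB lies at the top (0.48), and most other genes lie within 0.3 of 0 on both axes.

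Leaving out a library in turn showed where calls depended on it. Without Antp RNAi replicate 2, 1 of the 39 genes was called at 0.001 (stg), where 2.11% of genes were called, and 5 at 0.05, where 13.0% were. The 5 were stg, CycE (log2 fold change 0.52) and E2f1 (0.42) with higher levels and aurB (-0.48) and fzy (-0.37) with lower levels in Antp RNAi. The share of 5 in 39 is close to that over all genes. Without Antp RNAi replicate 1, none was called at 0.05, where 7.03% of all genes were, and without control replicate 2 or 3 none was called, where 2.96% and 2.99% of all genes were. In these fits the remaining library of a group is assumed to vary like the other pair, and where an Antp RNAi library is left out the spread comes from the closer control pair. Of the 39 genes, 26 kept the same sign in every alternative that tested them, 22 of them positive and 4 negative (fzy, aurB, aurA and dap).

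Estimates of the 39 genes moved with the length of their exons. Over these genes the log2 fold change in Antp RNAi against control had a Pearson correlation of 0.49 with log length and a Spearman correlation of 0.60 with length, and over all 10360 genes the values were 0.097 and 0.23. These are correlations across genes of the same 4 libraries, which are not independent replicates. The 20 genes with exons of 2747 bases or more had a median log2 fold change of 0.11, with 19 positive, and the 19 shorter genes a median of 0.034, with 12 positive. The 5 longest were E2f1 (6451 bases), CycE (5047 bases), BubR1 (4626 bases), thr (4578 bases) and scra (4447 bases), with log2 fold changes of 0.15, 0.31, 0.079, -0.041 and 0.23 in that order. The 5 shortest were aurB (1183 bases), Cdk1 (1082 bases), PCNA (1070 bases), geminin (1061 bases) and pim (978 bases), with log2 fold changes of -0.24, 0.037, 0.07, -0.024 and 0.034. Replicate 2 over replicate 1 of Antp RNAi gave -0.44 and -0.24 over the 39 genes, and the control pair -0.17 and -0.083. Over all 10360 genes the values were -0.18 and -0.30 for the Antp RNAi pair and -0.028 and -0.073 for the control pair. Replicate 2 was the higher for 12 of the 20 longer genes and for 16 of the 19 shorter ones. The part of length in the differences between groups was not tested.

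**Figure D5:**
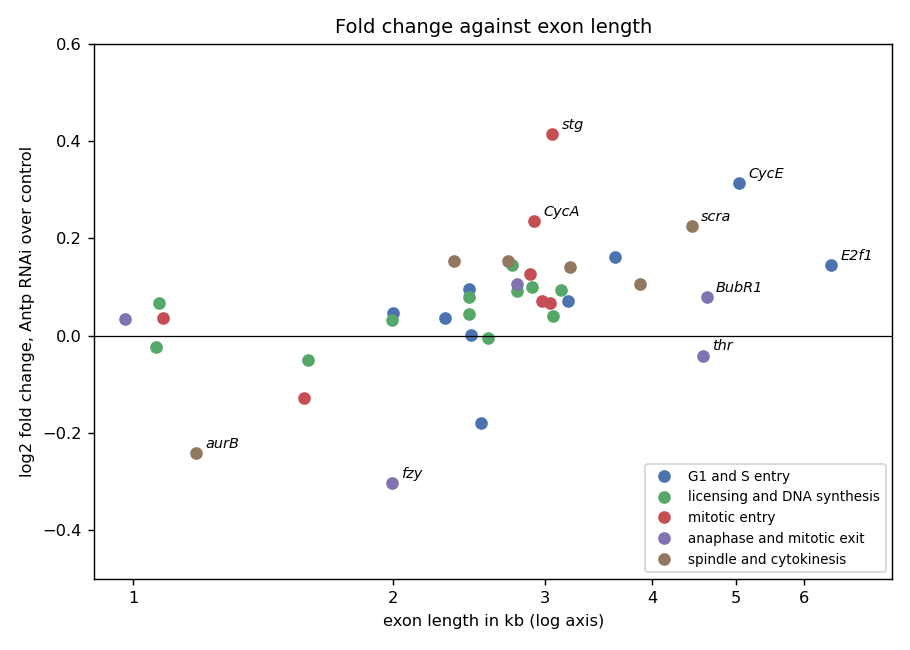
Log2 fold change (Antp RNAi over control) against exon length in kb (log axis) for the 39 genes, coloured by role. Of the 20 genes of 2747 bases or more, 19 lie above 0, and the low values of aurB and fzy are among the shorter genes.

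A further 160 genes of the same processes were examined as 6 lists, and none of them was called at 0.05 by edgeR. DESeq2 called 1 of the 160 at 0.05 (cmet, a kinetochore kinesin of the CENP-E type, adjusted p = 0.0494 by DESeq2 and 0.166 by edgeR), where it called 4.13% of 11147 genes. Positive estimates numbered 102 and negative ones 58, with a median of 0.038. At an unadjusted p below 0.05 there were 9, or 5.63% against 11.5% of all genes, 8 with higher and 1 with lower levels in Antp RNAi. Genes named from these lists were chosen after their values were seen. cmet was at 198 and 217 CPM in the control and at 269 and 259 CPM in the Antp RNAi libraries, and the helicase RecQ4 was at 67.2 and 64.6 CPM in the control and at 86.6 and 82.7 CPM in the Antp RNAi libraries. In both cases the groups were well apart, with log2 fold changes of 0.35 (SE 0.10) and 0.36 (SE 0.10). Nnf1b, a kinetochore subunit, was low throughout, at 6.66 and 8.77 CPM in the control and at 4.46 and 4.89 CPM in the Antp RNAi libraries (-0.72, SE 0.22, adjusted p = 0.176 by edgeR).

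By list, the 40 genes of the replication machinery were evenly split, 20 positive and 20 negative, with a median of -0.00055. The 19 genes of condensin, cohesin and topoisomerases had 15 positive estimates and a median of 0.090, and the 37 genes of the spindle, centrosome and cytokinesis 27 positive and 10 negative. For checkpoint and kinetochore genes 16 were positive and 8 negative, for cell cycle regulators 16 and 12, and for subunits and partners of the anaphase-promoting complex 8 and 4. Antp RNAi replicate 2 was above replicate 1 for 31 of the 40 replication machinery genes. Calls at 0.05 in these lists appeared when an Antp RNAi library was left out. There were 22 (13.8%) without replicate 2, 17 with higher and 5 with lower levels in Antp RNAi, where 13.0% of all genes were called, and 8 (5.0%) without replicate 1, all with higher levels, where 7.03% were. These shares are close to or below those over all genes. cmet, RecQ4 and the septin pnut were in both sets.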

How the data were processed

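RNA from FACS-sorted wing disc-associated myoblasts (2 control and 2 Antp RNAi libraries, grouped by sample titles) was amplified from 2 ng with 10 PCR cycles and tagmented, with 12 further cycles. The kit does not mark strand and no molecular identifiers were used. The authors deposited whole-number counts of reads over exons, without normalization (dm6; Subread and featureCounts per the submitters' processing notes, versions not given). Exons of 15 of the 39 genes overlap a gene on the other strand. The authors' own comparison, which holds mean signal, log2 fold changes and p-values, was used for gene symbols only.

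Counts were tested with edgeR 4.0.16 in R 4.3.3 (filterByExpr with minimum count 10, TMM, quasi-likelihood, two-sided, Benjamini-Hochberg over all genes). SE is the size of the log2 fold change divided by the square root of F. The spread beyond counting noise (biological coefficient of variation) was 0.132. A count of 0 allows up to 3 counts, or 0.0551 to 0.0708 CPM, a limit that covers counting error only. Alternatives were DESeq2 1.42.0, limma-voom 3.58.1, other scalings, filters, thinned counts, thresholds, genes without overlapping exons (added after seeing the data) and leaving out each library.

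Members and lists were chosen with earlier results of these data known. Values by library are given for genes past an adjusted p of 0.05, the 3 highest and 3 lowest log2 fold changes, the 3 largest differences within a group, and 17 genes set out by role; Rbf was added after its values were seen. Scripts were tested on simulated data. Promoter and protein sequences were not used here.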

Additional observations from a re-analysis of the deposited data

How the results depend on the processing

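The number of the 39 genes called at 0.001 was 0 with edgeR, DESeq2, limma-voom, the other scalings, filters and thresholds, and 0 to 1 when a library was left out (stg, without Antp RNAi replicate 2). For the 160 further genes it was 0 throughout. The median log2 fold change of the 39 genes was 0.055 to 0.086 under other tools, scalings and filters and 0.029 to 0.11 when a library was left out, and the log2 ratio of summed levels was 0.079 to 0.13 over all alternatives. Other scalings gave 30 to 32 positive genes and changed the sign of 2, Cdk4 and RnrL, both within 0.01 of 0. Over all alternatives 13 genes changed sign, E2f1 by the most. No paired analysis was possible because replicate number 2 alone is common to the groups. With 2 libraries in each group, no outlier within a group could be sought. Differences in single genes could be present without passing, and the smallest that could pass was not worked out. fzy at 81.0% of the control (adjusted p = 0.279 by edgeR) and stg at 133% (adjusted p = 0.427 by edgeR) did not pass, though their 95% intervals left out 0.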
